A study of Mus musculus with 18 samples.

Results

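RAD21 binding was mapped around Myc and Pvt1 on mouse chromosome 15, in a window that began 500 kb upstream of the annotated start of Myc and ended 1 Mb past its end (chr15:61316946-62821929, mm9). A peak was taken into the window by its centre, and peaks of different lists that shared at least 1 bp were joined into 1 cohesin binding site. The window held 14 of the 54864 peaks, and these formed 9 of the 18957 sites in the genome. Membership therefore depended on position only and not on the level of binding.

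RAD21 ChIP-seq was carried out on purified splenic B cells of C57BL/6 mice (C57BL/6J in the study's methods) aged 8 to 10 weeks. The cells were left resting, or were cultured for 48 h or 96 h in the presence of 50 µg/ml LPS and 2 ng/ml IL-4. LPS is a component of bacterial walls that triggers B cell activation, and the cytokine IL-4 then directs the switch to IgG1. Each time point had 3 replicates, and each replicate was a pool of cells from 12 mice, so that differences between single mice cannot be seen. The 96 h cells were also enriched for IgG1-positive cells by negative selection, and the time of stimulation and this enrichment cannot be told apart at 96 h. The data analysed were 12 peak lists. Of these, 9 were called in single replicates, and 3 were called after the reads of a time point had been merged and are named pooled here. Peaks were called against input DNA, and the 9 input libraries entered only in that way.

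RAD21 is the kleisin that closes the ring of cohesin, a complex that holds DNA strands together and extrudes chromatin loops. Cohesin often comes to rest where CTCF, a zinc finger protein, is bound to its motif, and such sites tend to anchor loops that bring distant enhancers and promoters together or keep them apart. Myc encodes a transcription factor that drives growth and division, and it is induced rapidly when a resting B cell is activated. Pvt1, its downstream neighbour, gives rise to a long non-coding RNA, and the region around both genes is known for enhancers of Myc and for chromosome translocations in B cell tumours.

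Myc (ENSMUSG00000022346.8) lies on the plus strand at chr15:61816946-61821929 and spans 4.98 kb. Pvt1 (ENSMUSG00000072566.3, a lincRNA in the annotation) lies on the same strand at chr15:61869542-62209651 and spans 340 kb, from 52.6 kb to 393 kb downstream of the Myc start. The other annotated genes of the window were the pseudogene H2afy3 on the opposite strand inside Pvt1, the microRNA gene AC134453.1 at 668 kb and the small nucleolar RNA gene SNORA17 at 808 kb. None of the 9 sites lay in these 3 genes or in Pvt1.

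The sequence at the sites is shown first, because some sites carried a motif common to RAD21 sites and others had a simple repeat near their centre. On chromosomes other than 15, 900 sites that at least 6 of the 9 replicates shared were used to learn a motif 20 bases long. Its consensus was NCCACNAGGGGGCGCNNNNN, where N is a position with no single preferred base, and it resembles the known motif of CTCF. A match needed a score of at least 9.51 log2 odds on either strand within 100 bp of the centre of the site, a level passed by 5% of windows 1 kb away. The 4 sites of the window with a match are given here from the mm9 genome, 5′ to 3′ on the strand of the match. Capitals mark the 20 matching bases and lower case the 5 bases on either side.

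1.94 kb upstream of Myc, plus strand, chr15:61814980-61815009: ctgtgGCCAGTAGAGGGCACACTTActtta
1.77 kb downstream of the Myc start, plus strand, chr15:61818674-61818703: ctttcTCCTTCAGGTGGCGCAAAACtttgc
818 kb downstream, minus strand, chr15:62634516-62634545: gcttgGCCACTTGGTGGAGGTGTTGgagaa
828 kb downstream, minus strand, chr15:62644829-62644858: agcaaTCCAGCAGAGGGCATCAGATctcct

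At 3 other sites, a repeat of a 2-base unit ran for 44 to 55 bp within 100 bp of the centre. It covered 46 of the 65 bp of the site 907 kb downstream, but touched only 8 of the 82 bp of the site 242 kb upstream and 4 of the 96 bp of the site 426 kb downstream, so that most of the repeat lay beside these peaks. The first 30 bases of each repeat are shown on the plus strand in lower case, with no capitals because no base was matched to the motif.

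242 kb upstream of Myc, chr15:61575355-61575384: ctctctctctctctctctctctctctctct
426 kb downstream, chr15:62242647-62242676: gagagagagagagagagagagagagagaga
907 kb downstream, chr15:62723666-62723695: agagagagagagagagagagagagagagag

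The lists differed widely in length, with 821 peaks in the shortest (resting replicate 2) and 8579 in the longest replicate list (96 h replicate 3), and the pooled lists held 5690, 5579 and 12806 peaks at 0, 48 and 96 h. Each replicate list was called from 7000000 unique read positions, and the lists give no count of reads for a single peak. Each peak carries a score of the authors' peak caller, which is given here as a percentile, the percent of the peaks of the same list that scored lower, with ties shared equally. Replicate 2 at 48 h stood apart from the other libraries. Its peaks had a median width of 65 bp, against 151 to 212 bp in the other 8 replicates. Of the 4763 sites in the genome that were found in this replicate and no other, 64.0% had a tandem repeat of at least 20 bp within 100 bp of the centre, against 6.47% of windows 1 kb away, and 1.47% had a motif match. The number and density of sites in the window and the stretches without a site are given with and without this replicate and the pooled peaks that it alone supported. This choice was made after seeing the data. Other counts and shares include the replicate unless stated otherwise, among them those of genes, pooled sites, motif matches and repeats. The 48 h pooled list had a median peak width of 101 bp, against 205 bp in the resting and 215 bp in the 96 h pooled list. Of its sites, 14.1% had peaks in 2 or more replicates of the time point, against 31.0% and 35.8%.

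The site just upstream of the Myc promoter was found in resting and in 96 h-stimulated B cells and in no list at 48 h. It covered 322 bp of intergenic sequence (chr15:61814843-61815164), its centre was 1.94 kb upstream of the start, and no other site lay within 10 kb upstream. In resting B cells it was called in replicate 1 at a score percentile of 46.7 and in the pooled list at 78.8. In 96 h-stimulated B cells it was called in replicate 3 at a percentile of 75.9 and in the pooled list at 66.7. Replicates 2 and 3 of resting B cells and replicates 1 and 2 at 96 h had no peak there, so 1 of 3 replicates carried it at each of these time points. With absent peaks set to 0, the mean percentile was 15.6 in resting B cells, 0 at 48 h and 25.3 at 96 h, and the values of the 3 groups overlapped at 0. At 48 h replicates 1 and 3 held 1538 and 1563 peaks in all, so a missing peak there does not show that binding was lost.

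The number of replicates at this site (1, 0 and 1 of 3) did not pass a test between the time points (Fisher's exact test, p = 1, and exact permutation test of F on the percentiles, p = 1). With a peak in 2 of 9 replicates neither test could give a p below 0.25, so they cannot show whether the site changed. Across the genome, 2381 of 15697 pooled sites were in all 3 pooled lists. A further 2532, or 16.1%, were in those of resting and 96 h-stimulated B cells but not in that of 48 h-stimulated cells. Sites shared by the resting and 96 h lists thus lacked a 48 h peak slightly more often than they had one. The Myc site ranked higher among all peaks than the middle of the class of 2532 in resting B cells, where the median percentile of the class was 41.9 (interquartile range 19.9 to 63.2). At 96 h it lay within the interquartile range of the class, whose median percentile was 60.5 (39.2 to 78.4). In this class, 701 sites or 27.7% also had a peak in exactly 2 of the 9 replicates. The arrangement of 1, 0 and 1 replicates occurred at 554 of the 15210 sites with a replicate peak, or 3.64%.

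Few genes had a pooled site at this distance. Of 22367 protein-coding genes, 3.75% had a site of the resting pooled list within 5 kb upstream of the start, 2.24% had one of the 48 h pooled list and 6.61% one of the 96 h pooled list. Myc was 1 of 413 genes with such a site in the resting and 96 h lists and not in the 48 h list, which is 24.2% of the 1706 genes with any pooled site there.

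The motif at the upstream site scored 19.5 log2 odds on the plus strand, 8 bp from the centre of the site, and 10 of the 13 positions with a preferred base had that base. Of all 18957 sites, 22.1% scored higher, and of windows 1 kb away, 0.256% did. The match passed the stricter level of 16.9, which 1% of such windows pass.

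**Figure D1:**
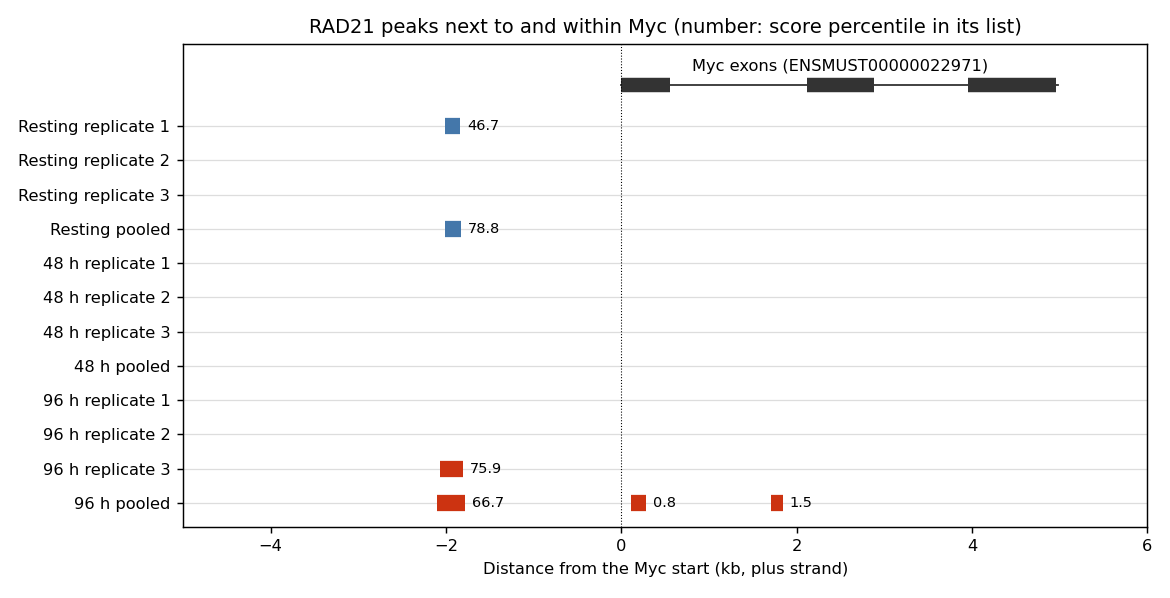
RAD21 peaks from 5 kb upstream to 6 kb downstream of the Myc start, with distance in kb on the x axis, 1 row for each of the 12 lists and the exons of 1 Myc transcript on top. Bars span the peaks and the number beside each is its score percentile in its list. Peaks upstream of the start are present in 2 resting and 2 96 h lists at percentiles of 46.7 to 78.8, no 48 h list has a peak, and the 2 peaks inside Myc are in the 96 h pooled list alone, at 0.8 and 1.5.

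Inside Myc, 2 further sites were called in the 96 h pooled list and in no replicate. The first (chr15:61817053-61817224, 172 bp) had its centre 0.192 kb downstream of the start, in the untranslated exon 1. The second (chr15:61818649-61818788, 140 bp) was 1.77 kb downstream of the start, in the untranslated first exon of a short transcript (ENSMUST00000159338.1) that lies in intron 1 of the longer Myc transcripts. Both scored among the lowest peaks of that list, at percentiles of 0.832 and 1.55. When the 3 pooled lists were limited to the 5579 highest-scoring peaks of each, neither remained, while the upstream site remained in the resting and 96 h lists.

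The site in exon 1 had no motif match (best score 0.729), and the second site scored 10.7, a level above the threshold but below the stricter one. In a search within 250 bp of the centre, with a threshold of 13.7, the second site had no match. Among the 2839 sites that were in the 96 h pooled list alone and in no replicate, 91.7% had a match. Few genes of the size of Myc held 2 sites of this list. Of 3754 protein-coding genes between 2.49 and 7.48 kb long, 5.11% had at least 1 such site and 10 genes, or 0.266%, had at least 2. The reads of 3 replicates were merged for this list, and no replicate had a peak within Myc.

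Pvt1 contained no RAD21 peak in any of the 12 lists. The stretch without a site ran from 1.84 kb to 426 kb downstream of the Myc start and measured 424 kb, so it held the 3′ part of Myc, the whole of Pvt1 and 33.0 kb beyond. Among the 18936 stretches between neighbouring sites in the genome, with a median of 66.5 kb, 6.85% were longer. Of 1049 genes between 170 and 510 kb long, 275 or 26.2% likewise had no site, and the median was 1 site. Without replicate 2 at 48 h the stretch reached the site at 473 kb and measured 471 kb, 7.82% of stretches in the genome were longer, and 437 of the 1049 genes (41.7%) had no site. The lists give only peaks that passed the false discovery rate of 0.05, and weaker binding in Pvt1 would not be seen in them.

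The first site past Pvt1 (chr15:62242687-62242782, 96 bp) was 33.1 kb beyond its end and 426 kb from the Myc start. It was found in replicate 2 of 48 h-stimulated B cells at a percentile of 84.5 and in the 48 h pooled list at 56.5, and nowhere else. The GA repeat shown above ended 4 bp inside it, and its best motif score was -3.43. The other sites of this replicate in the window, 242 kb upstream (chr15:61575281-61575362, percentile 28.6) and 907 kb downstream (chr15:62723669-62723733, percentile 47.6), were in no other list and had the other 2 repeats near their centres, with best motif scores of 4.24 and -6.30. These 3 sites were 65 to 96 bp wide, near the median width of that replicate. Without it and the pooled peak that it alone supported, the window held 6 sites and no site at 48 h.

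The remaining 3 sites were all found at 96 h only. A site 80.2 kb past the end of Pvt1 (chr15:62289718-62289884) was in replicate 3 at a percentile of 8.91. Its best motif score within 100 bp of the centre was 7.33, below the threshold, and a search within 250 bp found a match of 15.2. Farther downstream, a pair of sites lay 818 kb and 828 kb from the Myc start, separated by 10.1 kb. The nearer one (chr15:62634365-62634629) was in replicate 3 at 38.3 and in the pooled list at 40.2, and the farther one (chr15:62644753-62644897) was in the pooled list alone at 19.7. Both had a motif match on the minus strand, at 15.8 and 18.1 log2 odds, whereas the matches upstream of and inside Myc were on the plus strand. Over all sites with a match, 49.5% were on the plus strand. Between the site 80.2 kb past Pvt1 and this pair, 344 kb held no site, a length exceeded by 9.14% of stretches in the genome, and by 11.1% without replicate 2 at 48 h.

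**Figure D2:**
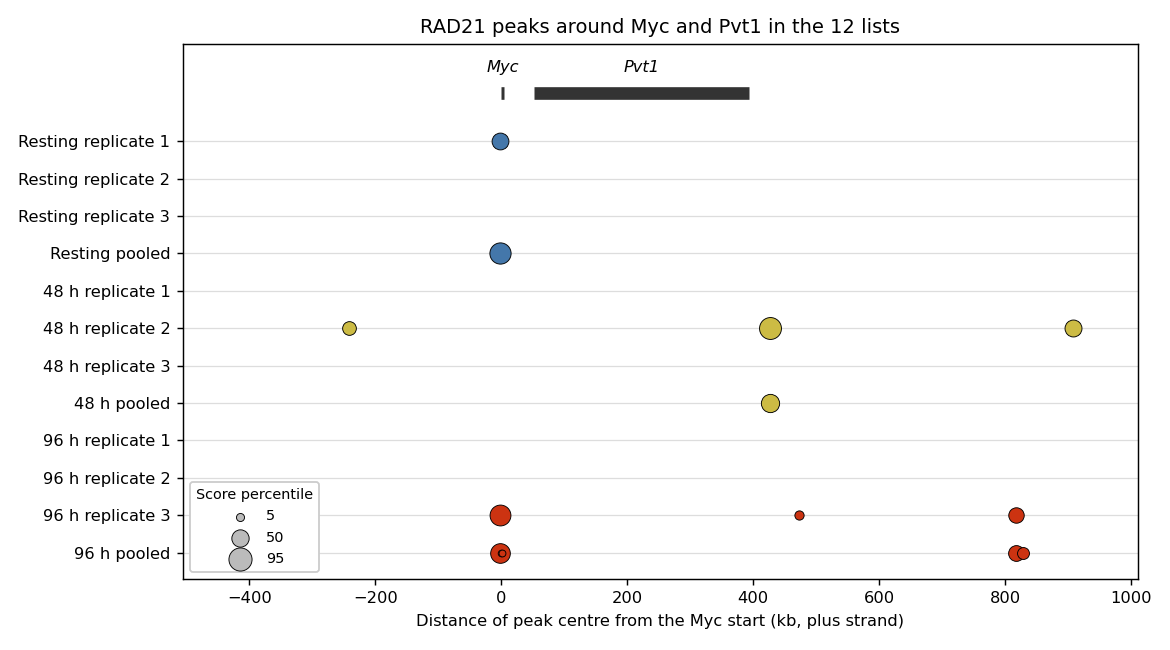
RAD21 peaks in the window around Myc and Pvt1, with distance of the peak centre from the Myc start in kb on the x axis and 1 row for each of the 12 lists. Circles are peaks, their area grows with the score percentile and black bars on top are the genes. No circle lies under Pvt1, the 3 peaks of 48 h replicate 2 are 242 kb upstream and 426 and 907 kb downstream, and 6 of the 9 replicates have no peak.

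Over all 9 sites, 4 had a motif match (44.4%) and 3 had a tandem repeat within 100 bp of the centre (33.3%), against 66.4% and 19.8% of all sites in the genome. Of the 261 sites of chromosome 15 shared by 2 or more replicates, 90.4% had a match. All 3 repeats in the window belonged to replicate 2 at 48 h, and among the other 6 sites 4 had a match. The shares of all sites include the 4763 sites of that replicate alone, of which 1.47% had a match and 64.0% a repeat. The 4 of 6 therefore cannot be set against the 66.4%. In the genome, sites of replicate 3 at 96 h alone had a match in 92.7% of cases, although in the window 1 of its 2 such sites had one.

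**Figure D3:**
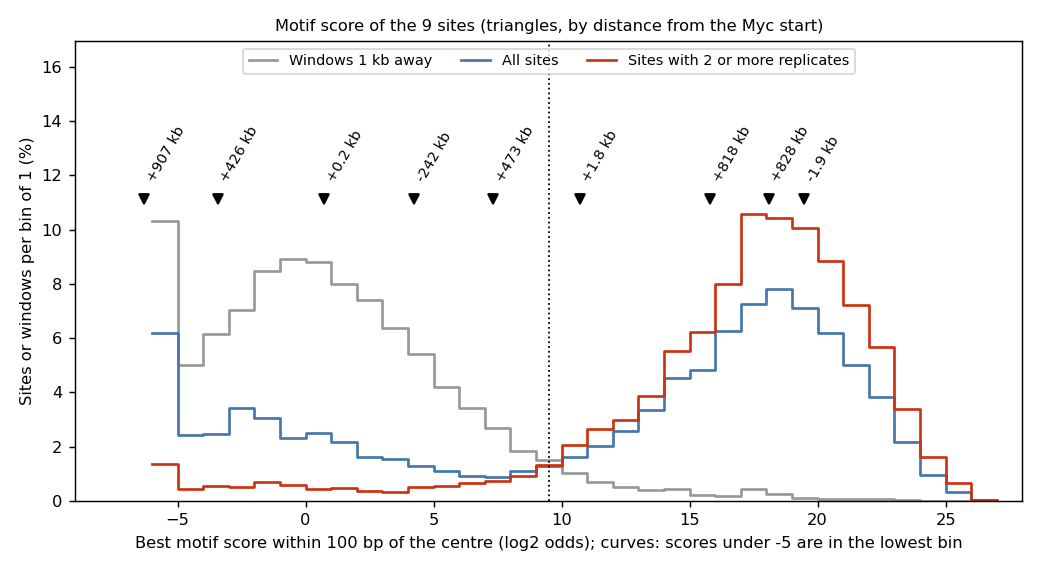
Best motif score of the 9 sites in log2 odds on the x axis (triangles, with the distance from the Myc start), above the distribution of scores in percent per bin for all sites, for sites with a peak in 2 or more replicates and for windows 1 kb away. The dotted line is the threshold of 9.51. The site 1.9 kb upstream of Myc and the sites 818 and 828 kb downstream lie under the upper mode at 15.8 to 19.5, the site inside Myc at 1.8 kb is just past the threshold, and 5 sites lie below it.

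The window held few peaks at each time point. The 7 peaks of the replicate lists came from 3 of the 9 replicates. Replicate 1 of resting B cells had 1 of its 2097 peaks there, replicate 2 at 48 h had 3 of 5254, and replicate 3 at 96 h had 3 of 8579. In these lists a placement by length alone would give 1.19, 2.98 and 4.86. The other 6 held between 821 and 4552 peaks and had none there, where placement by length would give 0.465 to 2.58. The 0 of 4552 in replicate 2 at 96 h allows up to 0.659 per 1000 peaks, and the 0 of 821 in replicate 2 of resting B cells allows up to 3.65.

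As a share of the list, the window held 0.159 ± 0.275 peaks per 1000 in resting B cells (SD, n = 3). The share was 0.190 ± 0.330 after 48 h and 0.117 ± 0.202 after 96 h of stimulation (SD, n = 3 each). Each group had 2 replicates at 0 and 1 above it, and the groups overlapped. The 3 time points differed by less than the replicates did among themselves (exact permutation test over 280 divisions, F = 0.0548, p = 1). The pairwise differences did not exceed that spread either, and came to 0.03 per 1000 for 48 h minus resting, -0.04 for 96 h minus resting and -0.07 for 96 h minus 48 h (exact two-sided permutation tests, p = 1 each). The smallest p for 3 against 3 is 0.1, and with 1 replicate above 0 in each group it was 0.4, so the pairwise tests could not have passed. Without replicate 2 at 48 h, the share at 48 h was 0 in both remaining lists, the difference for 48 h minus resting turned to -0.159 and that for 96 h minus 48 h to 0.117 (exact permutation tests, p = 1 each).

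The window had 1 peak in the resting, 1 in the 48 h and 5 in the 96 h pooled list, where a placement by length alone would give 3.23, 3.16 and 7.26. As shares of the lists these were 0.176 per 1000 (exact binomial 95% interval 0.00445 to 0.979), 0.179 (0.00454 to 0.998) and 0.390 (0.127 to 0.911). The intervals, which cover counting error only, overlapped. The density of sites over all lists was 5.98 per Mb in the window, 7.57 on chromosome 15 and 7.14 in the genome. Without replicate 2 at 48 h it was 3.99, 5.82 and 5.43 per Mb.

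**Figure D4:**
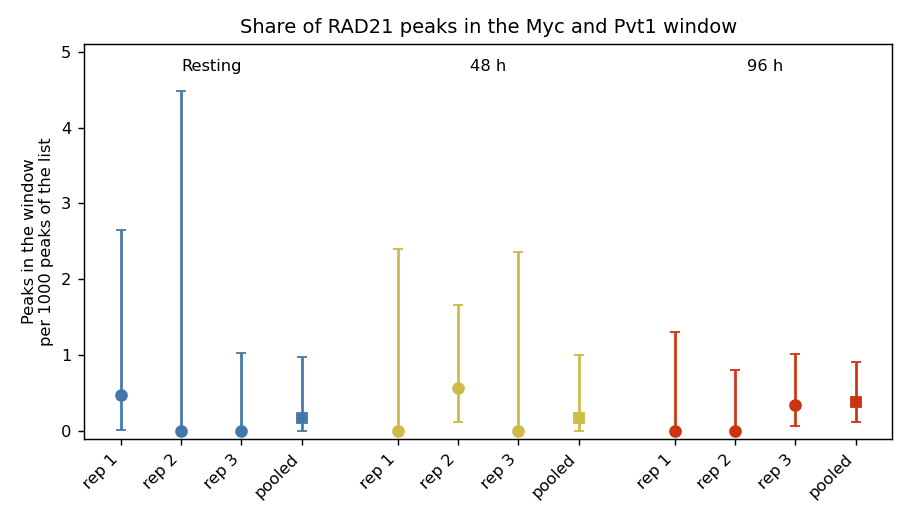
Peaks in the Myc and Pvt1 window per 1000 peaks of each list on the y axis, for the 9 replicates (circles) and the 3 pooled lists (squares), grouped by time point. Bars are exact binomial 95% intervals, which cover counting error only. Each time point has 1 replicate above 0, at 0.477, 0.571 and 0.350, and all intervals overlap.

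The site tests could not tell whether binding at single sites of the window changed. Of the 6 sites called in 1 or more replicates, 5 had a peak in 1 replicate, for which the exact permutation test of F and Fisher's exact test give p = 1 whatever the values. The site upstream of Myc, with 2 replicates, could not fall below 0.25. In the genome 5.44% of sites had an unadjusted p under 0.05 in the first test and 3.06% in the second, and after adjustment 0 sites did in either. The smallest p the permutation test can give is 0.00357, and that of Fisher's test is larger. Over 15210 sites such a p passes the adjustment only if many sites reach it together. The 0 therefore does not show that no site changed. Sites that every replicate of a time point had and every replicate of another lacked made up 7.28% of the 15210, and 0 of the 6. That 0 was fixed, because none of the 6 had a peak in 3 replicates. At least 2 replicates shared 32.0% of all 18957 sites and 1 of the 9 sites here, the one upstream of Myc. Of the other 5 sites with a replicate peak, 3 had it in replicate 2 at 48 h and 2 in replicate 3 at 96 h.

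By pooled list, 4 of the 6 pooled sites of the window were at 96 h alone, against 44.5% of all pooled sites, 1 was at 48 h alone (13.5%) and 1 was shared by resting and 96 h (16.1%). No site was in all 3 pooled lists, a class that held 15.2% of pooled sites. Of the 5 sites in the 96 h pooled list, 2 had a peak in at least 1 replicate of that time point, compared with 71.1% in the genome, and 0 had peaks in 2 or more, compared with 35.8%.

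The nearest sites on either side of the window with a peak in 2 or more replicates were also described. On the upstream side, a site 585 kb from the Myc start (chr15:61232233-61232616) had peaks in 3 replicates, 1 of resting and 2 of 96 h-stimulated B cells, with pooled percentiles of 43.8 and 64.4. On the downstream side, a site 1.31 Mb from the start (chr15:63122053-63122333) had peaks in 6 replicates and all 3 pooled lists, at percentiles of 80.4, 99.2 and 76.7 at 0, 48 and 96 h. The first of these had a motif match of 11.3 log2 odds. The second had none, its best score being -0.03, and the stretch with that score held a GA repeat. At 48 h the second site ranked at 98.8 in replicate 2 and at 94.8 in replicate 3. Between the upstream and downstream neighbours, the site upstream of Myc was the only one with a peak in more than 1 replicate.

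Myc belongs to a network of related proteins that bind DNA as pairs, with Max as the shared partner of Myc, its paralogues Mycn and Mycl1, the Mxd antagonists, Mnt and Mga, and with Mlx as the partner of a parallel branch. Among the 13 genes of this network, a site of the pooled list lay within 10 kb of an annotated start for 4 genes in resting B cells (30.8%), 1 at 48 h (7.69%) and 5 at 96 h (38.5%), against 9.80%, 6.34% and 18.3% of all protein-coding genes. In resting B cells these were Myc, Mycl1, Mxd1 and Mlx, and the same genes and Mycn had one at 96 h. Mycl1 had a site 0.137 kb upstream of its start (percentile 35.0 in resting, 44.9 at 96 h, 2 replicates at 96 h). The site of Mxd1, which encodes an antagonist of Myc, was 1.81 kb upstream (38.2 and 80.9, 1 resting and 2 96 h replicates). Both therefore had pooled peaks in resting and 96 h-stimulated cells and none at 48 h, as Myc did. So did a site 8.57 kb downstream of the Mlx start (40.1 and 56.9, 2 replicates at 96 h). Another site of Mlx, 5.01 kb upstream, was in the resting pooled list alone. The pattern is common, because in the genome 2532 sites of the resting and 96 h pooled lists lacked a 48 h pooled peak and 2381 had one. Mycn had a site 0.683 kb upstream at 96 h (67.2, 2 replicates) and a different one 4.82 kb upstream at 48 h (85.6) that was supported by replicate 2 of that time point alone. No site was found within 10 kb of the start of Max, Mxi1, Mxd3, Mxd4, Mnt, Mlxip, Mlxipl or Mga. These counts were not tested.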

How the data were processed

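The deposited peak lists of 9 RAD21 ChIP-seq replicates and 3 pooled samples were used. The authors aligned reads to mm9 (Bowtie2 in the submitters' processing notes), reduced each set to 7000000 randomly drawn unique positions, and ran MACS with input as control at a false discovery rate of 0.05. For each pooled list the reads of 3 replicates were merged first. The unit of the deposited values is a peak caller score, whose statistic is not given in the sources used here, so the authors' score served only to rank peaks within a list. The replicate lists thus rest on equal numbers of positions, but give no reads per peak and no binding below the threshold.

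GENCODE M1 on mm9 gave the gene positions, and sequences came from the same assembly. Groups followed the labels. Shares were compared by exact permutation tests, and single sites by exact permutation of F and by Fisher's exact test over all 15210 sites with a replicate peak, with Benjamini-Hochberg adjustment. Each replicate was a pool of cells from 12 mice, and the study does not state whether the time points shared pools. Described one by one were sites within 5 kb upstream of Myc, within Myc or Pvt1, in at least 6 replicates, or in 1 pooled time point with at least 2 replicates. The last 2 conditions found none, and the remaining sites were few enough to be given as well. The motif was learned from the most enriched 8-base word, AGAGGGCA, found in 12.0% of the 900 training sites and 1.33% of windows 1 kb away, and 90.6% of training sites matched. Tandem repeats were at least 20 bp of a unit of 1 to 4 bases, searched within 100 bp of the centre. The window, the members and the network list were chosen with earlier results of these data known. On simulated data, sites were planted with a peak in every 96 h replicate and in no other list. Of these, 200 of 200 had p under 0.05 in both tests, an outcome that the planting fixed. In the permutation test 61 of 1790 other sites had p under 0.05, and 0 planted sites passed the adjustment. No site of the window had the planted pattern, so the simulation says nothing of the tests at those sites. Alternatives were the length of the lists, the score threshold, the scale, the window, merging, overlap, replicate support, distances, motif settings, the replicate block and leaving out replicates. The software was matplotlib 3.10.9, pysam 0.24.0, scipy 1.17.1, numpy 2.4.6 and Python 3.11.15. Read counts and input signal were not analysed here.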

Additional observations from a re-analysis of the deposited data

How the results depend on the processing

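No comparison of shares passed its threshold under any alternative run, with a lowest exact permutation p of 0.7. With all replicates the pairwise tests could not give a p below 0.4, so their failure to pass says nothing of stability. The site tests called 0 to 0 sites over the replicates left out, which was fixed by the small number of replicates with a peak and says nothing of stability. The small differences in share had no stable sign. The difference for 96 h minus resting turned to 0.0777 per 1000 with the higher-scoring peaks of each list and to 0.33 on the log2(number + 1) scale, and that for 48 h minus resting turned to -0.0321 with 500 kb on either side of Myc. With every list limited to the 821 peaks of the shortest, 48 h minus resting was 0.406, 96 h minus resting 0 and 96 h minus 48 h -0.406 per 1000 (exact permutation tests, p = 1 each). Leaving out 1 replicate in turn gave F from 0.00858 to 0.364, 48 h minus resting from -0.159 to 0.190, 96 h minus resting from -0.159 to 0.117 and 96 h minus 48 h from -0.190 to 0.117. With a replicate block, in which labels were permuted within replicate numbers, the differences were the same (0.0314, -0.0424 and -0.0738 per 1000) and p was 1 for each. Same-numbered replicates correlated at -0.261 to 0.278, and 3 of 9 pairs were over 0.1. With 3 replicates per time point, these correlations cannot show whether the numbers pair the samples.

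The pooled lists held 6 sites, 2 with lists of equal length, 3 with support by at least 1 replicate and 0 with support by at least 2. The motif was matched at 4 sites and at 2 under the stricter level. Within 250 bp of the centre it was also matched at 4 sites, with the site at 473 kb in place of the one inside Myc. Within 50 kb, 9, 6 and 11 network genes had a site in resting, 48 h- and 96 h-stimulated B cells, where 34.2%, 27.0% and 57.3% of all protein-coding genes had one. Chosen after seeing the data, leaving out replicate 2 at 48 h with the pooled peak it alone supported gave 6 sites of 9. Leaving out replicate 3 at 96 h gave 8, and leaving out both gave 5. The pooled peaks of 96 h were kept in these last counts. The site at 818 kb therefore stayed, although replicate 3 alone supported its pooled peak. With 3 replicates per time point and no read counts, the lists cannot show differences in the strength of binding at a site.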
